A study of Mus musculus with 14 samples.

Results

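The comparison set unstressed intestinal stem cells of Chrm3 knockout (KO) mice against those of wild-type (WT) mice, with 2 samples in each group out of the 14 samples of the series. Chrm3 encodes the muscarinic acetylcholine receptor M3. All 4 samples came from mice with the Lgr5CreERT2-IRES-GFP allele and both copies of Chrm3 floxed. The KO mice were injected with tamoxifen for 3 days and the WT mice with vehicle, so the deletion and the drug cannot be told apart, and WT here names an undeleted floxed gene. NT marks the groups that did not go through the ES modelling of the study, a name the labels do not spell out, and their columns in the count table are called Ctrl. Cre and the EGFP used for sorting were both driven from Lgr5, so deletion and selection rested on the same promoter. The labels give no age for these mice, and neither the exons removed, nor the strain, nor the time of day of collection. The labels do not say whether the 2 samples of a group came from separate mice, so the p-values measure only the spread between these samples, which may be technical. The members of the comparison are the 17364 genes, of 55335 in the table, that passed a filter on low counts.

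Lgr5-positive cells at the base of the intestinal crypt divide and renew the epithelium, giving rise to absorptive enterocytes and to secretory goblet, tuft, Paneth and enteroendocrine cells. The M3 receptor couples to Gq proteins, which activate phospholipase C and raise calcium inside the cell. In the gut its ligand comes from nerves and also from tuft cells, which carry the enzyme that makes acetylcholine. A sort on EGFP from Lgr5 can also hold early daughter cells, which still carry the protein. In bulk samples such as these, fewer cells of a type and less RNA per cell cannot be told apart.

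The 4 samples had 29531151 to 36882310 counts in all. Levels below are CPM, a gene's count scaled to a common library total. A gene is said to have risen, fallen or been called where the adjusted p for KO against WT was under 0.05 in edgeR's quasi-likelihood test, and ± after a log2 fold change is its standard error. The 10 epithelial markers summed to 6990 to 7121 CPM in WT and 6548 to 7277 CPM in KO. By edgeR 0 of them were called (1 had an unadjusted p under 0.05), and by DESeq2 and limma-voom 0. The 2 WT samples were closer to each other than the replicates of any other group of this table, with a chi-square of 3.54 for each degree of freedom over the tested genes, against 24.7 for the KO pair and 12.8 and 14.4 for the ES pairs. KO replicate 2 had the highest share of mitochondrial counts, 8.74% against 6.79% to 6.99% in the other 3.

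Chrm3 itself (GRCm38 chromosome 13, 9875486 to 10360847) was counted in every sample. WT replicates had 11.2 and 13.0 CPM, and KO replicates 9.24 and 7.71 CPM. The KO samples were both lower, by -0.50 ± 0.16 on the log2 scale, and the difference did not pass the test (adjusted p = 0.119). A count over the whole gene includes exons that the deletion may leave in place, so it checks the KO label only weakly. Of the 8 tested genes for muscarinic receptors and acetylcholine handling, 1 fell and 0 rose. That gene was Chat, which makes acetylcholine and in this epithelium marks tuft cells. It had 14 and 19 counts in WT and 0 in both KO samples, at least 12.5-fold lower in KO against a floor of 3 counts over the group (adjusted p = 0.0283). The call held in 2 of the 8 fits that each left out a sample, those without an ES sample of KO, and the adjusted p reached 0.198 in the others. Chrm1, another Gq-coupled muscarinic receptor, had 2.86 and 3.49 CPM in WT and 2.24 and 2.22 CPM in KO and did not pass (adjusted p = 0.377). Bche, which breaks down choline esters, had 122 and 133 CPM against 110 and 127 CPM, and the groups overlapped.

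Downstream of Gq, 3 of 28 tested signalling genes fell and 0 rose, beside 2.11% of all tested genes that fell. The list as a whole had a median log2 fold change of -0.02, with 13 genes positive and 15 negative. Atp2a3, a calcium pump of the endoplasmic reticulum, had 146 and 149 CPM in WT and 78.6 and 86.0 CPM in KO, a log2 fold change of -0.84 ± 0.06 (adjusted p = 5.03e-05). Rgs2, an inhibitor of Gq, had 6.82 and 9.44 CPM against 3.15 and 3.52 CPM. Plcb2, the phospholipase C of the tuft cell taste cascade, had 6.79 and 6.08 CPM against 3.18 and 2.70 CPM. None of these 3 groups of values overlapped between the genotypes. Most genes named here and below from a list are its called members with the smallest p. That choice favours groups that do not overlap, so the lack of overlap adds nothing to the calls.

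Over all genes, 776 of 17364 were called (4.47%), 410 higher in KO (2.36%) and 366 lower (2.11%). Of these, 209 had changed by 2-fold or more, 74 upward and 135 downward. The count rested on both WT samples. Without WT replicate 1 it was 145 and without WT replicate 2 it was 159, in fits where the remaining WT sample was assumed to vary like the other groups. The share of calls that were higher in KO fell from 52.8% to 38.6% and 34.0% in those fits. Leaving out KO replicate 1 gave 848 calls and KO replicate 2 gave 685. In all 8 fits that each left out a sample, 126 of the 776 genes (16.2%) were called. The median log2 fold change over all tested genes was -0.01.

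Genes of the secretory lineages were lower in KO. Of 22 goblet cell genes, 18 fell and 0 rose, with a median log2 fold change of -0.77, beside a background of 2.11% of all tested genes that fell. Fcgbp, a mucus protein, had 3398 and 3290 CPM in WT and 1735 and 1568 CPM in KO. Both KO samples lay at about the same level below both WT samples (-1.02 ± 0.06, adjusted p = 1.18e-05). Muc2, the gel-forming mucin, had 481 and 472 CPM against 273 and 292 CPM (-0.75 ± 0.06, adjusted p = 5.03e-05). Agr2, which folds mucins, had 270 and 288 CPM against 166 and 159 CPM, and Tff3, a trefoil peptide of mucus, had 197 and 192 CPM against 97.1 and 92.1 CPM. Of the 18 goblet genes that fell, 2 lie on chromosome 17, Tff3 and Spdef. The summed level of the goblet list was 6593 and 6499 CPM in WT and 3974 and 3878 CPM in KO. Without WT replicate 1 the number of goblet genes that fell was 11, and without WT replicate 2 it was 12.

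Tuft cells are chemosensory cells of the epithelium. Of 27 tested tuft cell genes, 18 fell and 0 rose, with a median of -1.12. Avil, an actin-bundling protein of the tuft, had 15.3 and 14.2 CPM in WT and 6.09 and 5.34 CPM in KO (-1.37 ± 0.16, adjusted p = 0.000784). Sh2d6, an adaptor protein, had 10.1 and 10 CPM against 3.31 and 4.25 CPM. Kctd12, a subunit associated with GABA receptors, had 64.1 and 65.6 CPM against 37.8 and 36.1 CPM, and the transcription factor Spib had 9.52 and 8.13 CPM against 3.91 and 3.22 CPM. Values of these 4 genes, the called members with the smallest p, did not overlap between the genotypes, which that choice favours. Some listed genes are also used by lymphocytes. The summed level of 15 lymphocyte markers was 80.6 and 79.1 CPM in WT and 60.3 and 73.4 CPM in KO, with 0 of 14 tested markers called by edgeR (2 at an unadjusted p under 0.05) or by DESeq2. Its part in the tuft result was not tested. The count fell to 7 without WT replicate 1 and to 9 without WT replicate 2.

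Of 16 tested transcription factors of secretory fate, 7 fell and 0 rose. Atoh1, which commits cells to the secretory lineage, had 21.3 and 19.2 CPM in WT and 11.8 and 11.9 CPM in KO (-0.77 ± 0.11, adjusted p = 0.00398). Spdef, a goblet and Paneth maturation factor on chromosome 17, had 22.6 and 22.3 CPM against 11.9 and 12.6 CPM (-0.87 ± 0.11, adjusted p = 0.00112). Creb3l1, a factor of secretory cells, had 40.7 and 35.3 CPM against 21.9 and 21.8 CPM. Pou2f3, the tuft cell master regulator, had 9.46 and 6.52 CPM against 4.09 and 2.82 CPM. Both KO values lay below both WT values for each of the 4. The count was 2 without WT replicate 1, 3 without WT replicate 2 and 3 without KO replicate 2. In the Notch pathway, which restrains secretory fate, edgeR called 0 of 19 genes (1 at an unadjusted p under 0.05) and DESeq2 called 1. The fit without KO replicate 1 called 2 and that without KO replicate 2 called 1.

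Other secretory cells had fewer calls, though most of their listed genes had lower levels in KO. The median log2 fold change was -0.72 for 22 enteroendocrine genes, 20 of them negative. It was -0.24 for 18 Paneth genes, all 18 negative. Of the enteroendocrine genes, 14 had an unadjusted p under 0.05 by edgeR. Under ES 12 of them were called lower in KO, and 3 of the Paneth genes. Of 18 Paneth cell genes, the antimicrobial cells of the crypt base, 5 fell and 0 rose. Mptx2, a pentraxin, had 301 and 306 CPM in WT and 176 and 173 CPM in KO (-0.80 ± 0.06, adjusted p = 5.03e-05), and Mmp7, which processes defensins, had 148 and 146 CPM against 101 and 113 CPM. KO replicate 2 was above KO replicate 1 for 16 of the 18, and the number that fell was 9 without KO replicate 2, 2 without KO replicate 1 and 1 without either WT sample. Of 22 enteroendocrine genes, 2 fell, the hormones Gip (19.1 and 20.1 against 8.70 and 11.8 CPM) and Gcg (11.4 and 12.7 against 6.36 and 6.22 CPM), and neither call held without a WT sample.

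**Figure D1:**
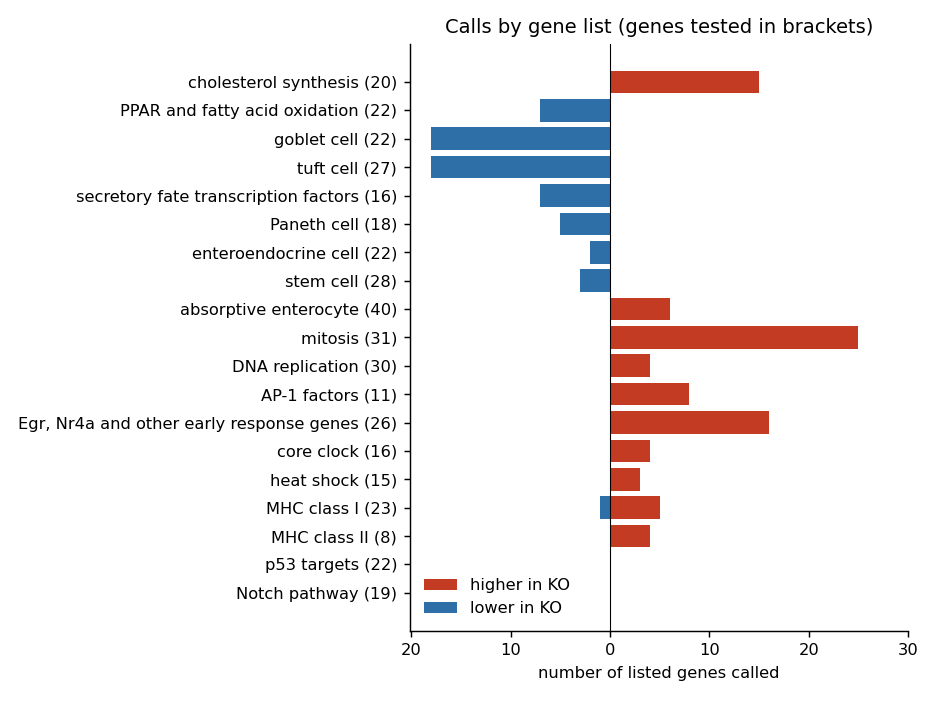
Number of genes of each list called higher (red, right) or lower (blue, left) in KO than in WT without stress, with the number tested in brackets. Goblet and tuft lists have 18 calls each to the left, and mitosis has 25 and cholesterol synthesis 15 to the right.

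Genes on a cholesterol synthesis list were higher in KO. Of 20 tested, 15 rose and 0 fell, with a median log2 fold change of 0.57, beside a background of 2.36% of all tested genes that rose. Mvk, mevalonate kinase, had 11.3 and 10.1 CPM in WT and 20.4 and 19.8 CPM in KO (0.91 ± 0.12, adjusted p = 0.00193). Idi1, an isomerase of the same pathway, had 88.2 and 89.2 CPM against 135 and 148 CPM. Both KO values lay above both WT values for each of these genes. The number of calls was 3 without WT replicate 1 and 3 without WT replicate 2.

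Some genes of fatty acid oxidation were lower in KO. Of 22 tested genes on a list of these and other targets of the PPAR receptors, 7 fell, 0 rose and 15 did not pass, with a median of -0.20. Cpt1a, which admits fatty acids to mitochondria, had 290 and 280 CPM in WT and 175 and 185 CPM in KO (-0.66 ± 0.06, adjusted p = 0.000135). Slc25a20, the carnitine carrier, had 39.2 and 35.8 CPM against 20.9 and 24.5 CPM, and Acot1, a thioesterase, had 28.1 and 31.1 CPM against 15.9 and 12.5 CPM. The groups did not overlap for these 3. The count was 2 without WT replicate 1, 3 without WT replicate 2 and 4 with only the 4 NT samples in the fit.

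**Figure D2:**
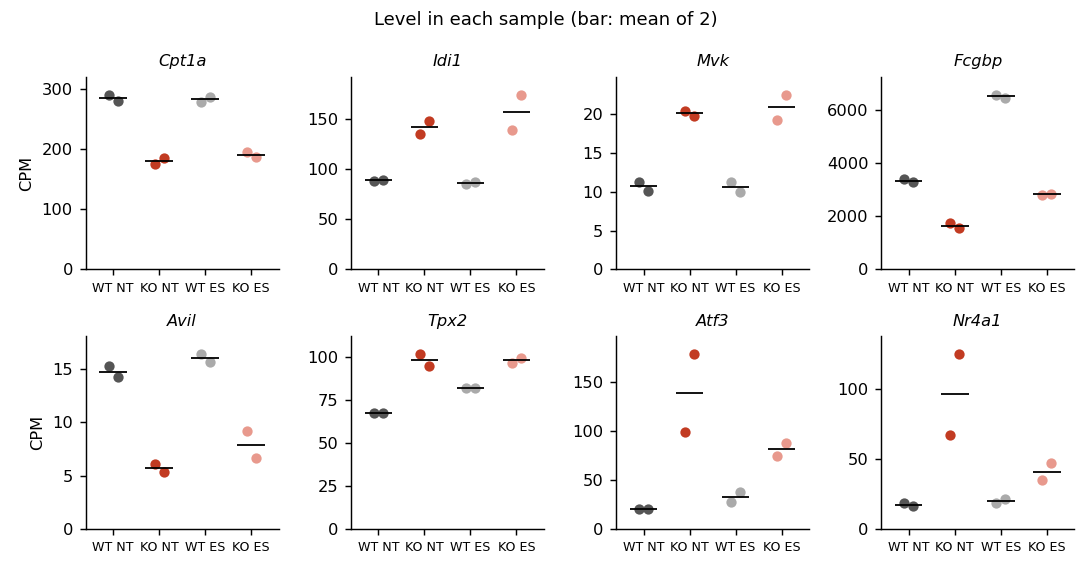
CPM in each sample of the 4 groups of the Chrm3 table for 8 genes, with a bar at each group mean and axes that start at 0. Cpt1a is at 290 and 280 CPM in WT NT and at 175 and 185 CPM in KO NT, and for Atf3 and Nr4a1 the 2 KO NT samples lie apart.

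Stem cell markers had few calls, though most of the listed genes had lower levels in KO. Lgr5, the receptor that marks these cells, had 129 and 133 CPM in WT and 131 and 120 CPM in KO (-0.06 ± 0.08, adjusted p = 0.75), with overlapping groups. Olfm4, a secreted protein of the same cells, had 10220 and 10430 CPM against 12846 and 11236 CPM (0.22 ± 0.07, adjusted p = 0.13). Ascl2, a stem cell transcription factor, had 36.0 and 37.2 CPM against 35.2 and 28.3 CPM (adjusted p = 0.329). Of the 28 genes of the stem cell list, 3 fell and 0 rose, beside 2.11% of all tested genes that fell. The 3 were the ion carrier Slc12a2, the cell cycle kinase Cdk6 and the Myc target Cdca7, lower by 0.24 to 0.29 on the log2 scale. The median log2 fold change of the 28 was -0.13, with 24 negative. By edgeR 11 had an unadjusted p under 0.05, and DESeq2 called 5. Under ES 7 were called higher in KO and 1 lower, with a median of 0.16. Of the 28, 27 were lower in KO replicate 2 than in KO replicate 1, and 9 fell in the fit without KO replicate 1 against 0 without either WT sample.

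Most mitosis genes rose. Of 31 tested, 25 rose and 0 fell, all 31 had a positive log2 fold change, and the median was 0.41. Tpx2, a spindle assembly factor, had 67.5 and 67.8 CPM in WT and 102 and 94.9 CPM in KO (0.54 ± 0.06, adjusted p = 0.000931). Bub1, a spindle checkpoint kinase, had 47.1 and 43.1 CPM against 68.0 and 66.6 CPM, Nusap1, a spindle protein, had 63.7 and 63.7 CPM against 91.7 and 90.4 CPM, and Racgap1, needed for cell division, had 87.1 and 89.4 CPM against 127 and 124 CPM. Mki67, a general proliferation marker, had 647 and 657 CPM against 852 and 750 CPM and did not pass (0.30 ± 0.10, adjusted p = 0.142). Of 30 DNA replication genes 4 rose, with a median of 0.17, among them Tyms (63.1 and 58.3 against 83.1 and 76.7 CPM), which makes thymidylate. The mitosis count was 5 without WT replicate 1 and 5 without WT replicate 2, and the replication count 0 in both. Cdkn1a, the cell cycle inhibitor p21, had 26.0 and 25.4 CPM against 20.3 and 29.1 CPM (adjusted p = 0.886), and edgeR called 0 of 22 p53 targets (9 at an unadjusted p under 0.05), DESeq2 1 and limma-voom 0. In the fit without KO replicate 1, 2 of the 22 rose.

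Of 40 absorptive enterocyte genes, 6 rose and 0 fell. Akp3, an intestinal alkaline phosphatase, had 6.63 and 6.01 CPM in WT and 18.4 and 32.6 CPM in KO (2.00 ± 0.32, adjusted p = 0.00621). Xdh, xanthine dehydrogenase, had 29.0 and 32.1 CPM against 59.1 and 78.7 CPM, and Slc40a1, the iron exporter, had 7.01 and 6.55 CPM against 12.9 and 19.9 CPM. Mep1a, a brush border protease, had 11.3 and 8.43 CPM against 19.4 and 20.7 CPM. Of the 6 that rose, 2 lie on chromosome 17, Xdh and Mep1a. Every one of the 40 genes was higher in KO replicate 2 than in KO replicate 1. With KO replicate 1 left out 17 rose and 0 fell, and with KO replicate 2 left out 5 rose and 6 fell, and the count was 2 without WT replicate 1 and 1 without WT replicate 2.

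Early response genes, which cells induce within minutes of a stimulus and also during tissue dissociation, were in part higher in KO. Over 4 lists (AP-1 factors, Egr and Nr4a factors and the like, MAP kinase feedback, and Kruppel-like factors) 29 of 60 rose and 0 fell. Of 11 AP-1 factors, 8 rose, with a median of 1.15. Atf3, a stress-induced factor, had 20.1 and 20.3 CPM in WT and 99.5 and 179 CPM in KO (2.78 ± 0.24, adjusted p = 0.000135). Jun had 304 and 299 CPM against 620 and 803 CPM, Fos had 371 and 381 CPM against 682 and 980 CPM, and Fosb had 145 and 136 CPM against 409 and 703 CPM. These 3 genes encode subunits of AP-1, and every KO value was above every WT value.

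Among 26 other early response genes 16 rose. Nr4a1, an orphan nuclear receptor, had 18.2 and 16.2 CPM in WT and 67.4 and 125 CPM in KO (2.48 ± 0.25, adjusted p = 0.000384). Cyr61, a secreted matrix protein, had 34.5 and 32.7 CPM against 81.4 and 124 CPM. Klf10, a Kruppel-like repressor, had 40.3 and 39.8 CPM against 83.2 and 114 CPM. Dusp1, a phosphatase that ends MAP kinase signalling, had 33.7 and 33.8 CPM against 77.8 and 120 CPM. The EGF receptor ligands Hbegf and Areg were also called, Hbegf at 29.8 and 27.4 against 60.3 and 112 CPM and Areg at 1.48 and 1.18 against 4.93 and 6.19 CPM. KO replicate 2 was above KO replicate 1 for 28 of the 29 early response genes that rose, and it was the sample with the most mitochondrial counts, whose part in the result was not tested. The count of 29 was 10 without WT replicate 1, 9 without WT replicate 2, 33 without KO replicate 1 and 24 without KO replicate 2. Of 15 heat shock genes, 3 rose: the chaperones Hspa1a (0.911 and 0.874 against 4.39 and 3.37 CPM), Hspa1b and Dnajb1. Hspa1a and Hspa1b lie close together on chromosome 17 (from 34969190 and from 34956436), which holds 3 of the 15. Under ES none of the 3 called genes was called (-0.35, -0.30 and 0.25 on the log2 scale).

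The cAMP response element TGACGTCA, a palindrome bound by CREB and ATF factors, was searched in the 250 bases before each start site in the RefSeq promoters (GRCm38.p6). It was found for 5 of 47 early response genes with a promoter in the table (10.6%), against 328 of 11022 tested genes (2.98%). The 3 sequences below belong to genes that rose, Dusp1, Maff (a small Maf protein, chosen after its values were seen) and Ppp1r15a (a phosphatase regulator, likewise), and are shown because the members moved together. They run from 5′ to 3′ on the gene's own strand, with the element in capitals, at chr17:26508473-26508722 (minus strand), chr15:79347270-79347519 (plus strand) and chr7:45526269-45526518 (minus strand).
Dusp1: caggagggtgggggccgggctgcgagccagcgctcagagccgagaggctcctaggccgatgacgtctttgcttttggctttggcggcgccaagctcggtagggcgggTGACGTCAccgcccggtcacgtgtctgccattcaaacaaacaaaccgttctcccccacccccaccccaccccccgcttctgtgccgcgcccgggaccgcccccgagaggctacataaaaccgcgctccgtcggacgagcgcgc
Maff: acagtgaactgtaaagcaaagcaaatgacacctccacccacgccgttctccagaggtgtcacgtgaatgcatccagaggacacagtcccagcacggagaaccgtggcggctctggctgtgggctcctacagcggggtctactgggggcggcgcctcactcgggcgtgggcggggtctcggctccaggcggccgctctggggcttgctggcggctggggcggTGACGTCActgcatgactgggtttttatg
Ppp1r15a: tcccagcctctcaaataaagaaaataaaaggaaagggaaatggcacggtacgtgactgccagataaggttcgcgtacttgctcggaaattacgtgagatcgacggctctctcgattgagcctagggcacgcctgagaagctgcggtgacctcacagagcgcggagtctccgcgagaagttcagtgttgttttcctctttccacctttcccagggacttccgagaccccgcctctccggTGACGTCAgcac
Each holds 1 copy of the element. A match is a description of these letters and says nothing of binding.

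Clock genes were partly higher in KO. Of 16 core clock genes 4 rose and 0 fell. Per1 had 18.7 and 17.1 CPM in WT and 30.9 and 34.8 CPM in KO (0.88 ± 0.10, adjusted p = 0.000745). The other 3 repressors called were Per2 (20.9 and 20.3 against 37.5 and 27.3 CPM), Per3 (14.1 and 12.0 against 18.0 and 19.9 CPM) and Cry2 (4.24 and 5.04 against 7.76 and 8.01 CPM). Cry1 had 6.69 and 7.06 CPM against 15.0 and 6.89 CPM and Nr1d1, a repressor of Arntl, had 46.8 and 43.6 CPM against 53.8 and 99.6 CPM, both uneven within KO and without a call. Arntl, the activator, had 38.7 and 33.9 CPM against 42.7 and 28.6 CPM. Among 8 output genes, Dbp rose (2.89 and 2.72 against 5.09 and 8.01 CPM) and so did Bhlhe40 (61.8 and 62.7 against 75.2 and 106 CPM), while Tef had 26.1 and 27.8 CPM against 34.7 and 51.7 CPM (adjusted p = 0.0684). The core clock count was 1 without either WT sample, and the output count 0 without WT replicate 1, without WT replicate 2 or without KO replicate 2. The E-box CACGTG, a palindrome that the clock activators bind, was in the window of 3 of 12 core clock genes with a promoter (25.0%) and of 1060 of 11022 tested genes (9.62%). Per1 is shown because it rose and carries one copy, in capitals, at chr11:69098699-69098948 (plus strand).
Per1: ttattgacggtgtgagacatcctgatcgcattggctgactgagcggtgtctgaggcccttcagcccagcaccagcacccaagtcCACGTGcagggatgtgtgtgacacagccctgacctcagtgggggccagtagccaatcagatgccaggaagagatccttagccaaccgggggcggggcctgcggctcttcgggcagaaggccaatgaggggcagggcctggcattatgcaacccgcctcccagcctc
The labels give no time of collection, and its part in the clock result was not tested.

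Antigen presentation genes were partly higher in KO. Of 8 tested class II genes 4 rose: H2-Aa (81.3 and 79.6 against 125 and 109 CPM), H2-Eb1 (90.0 and 92.2 against 147 and 114 CPM), H2-Ab1 (115 and 112 against 168 and 145 CPM) and the invariant chain Cd74 (339 and 332 against 511 and 401 CPM). The first 3 lie on chromosome 17, as do 6 of the 8 tested class II genes and 19 of the 23 tested class I genes. KO replicate 2 was the lower KO sample for all 8 class II genes. The count was 0 without either WT sample and 1 without KO replicate 1. Of 23 class I genes 5 rose and 1 fell, all 6 on chromosome 17, against 3 and 0 without either WT sample, and class I copies are similar enough that reads may be split between them. The plasma cell and B cell list summed to 14 and 9.47 CPM in WT and 4.88 and 4.86 CPM in KO, with Igha the 1 call of 6 and lower in KO. The myeloid list summed to 79.9 to 81.1 CPM in WT and 74.6 to 82.1 CPM in KO, with Cd68 the 1 call of 8 and higher in KO (4.02 and 2.72 against 5.79 and 6.56 CPM, adjusted p = 0.0458). Those 2 genes were chosen after their values were seen. Stromal, enteric neuron, endothelial and red cell lists summed to 6.47 CPM or less in each sample, and 6 of 13 stromal and 4 of 6 endothelial markers were at 0 in all 4 samples.

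Calls were not spread evenly over the genome. Chromosome 17 had 104 of 913 tested genes called (11.4%), 56 higher and 48 lower, against 672 of 16451 (4.08%) elsewhere. Chromosome 18 had 36 of 450 (8%), and the other autosomes and X had 2.48% to 5.39%. Of 36 mitochondrial genes 7 were called (19.4%), all higher in KO. All 7 encode ribosomal or transfer RNA, and no protein-coding mitochondrial gene was called. KO replicate 2 was the higher KO sample for all of them but mt-Ta and mt-Tn, named after their values were seen. The part of that sample's high mitochondrial share in these calls was not tested. Chromosome Y had 1 call among 10 genes. Within chromosome 17, genes starting between 5 and 45 Mb were called in 84 of 594 cases (14.1%) and the rest beyond 45 Mb in 20 of 307 (6.51%). Of the 84, 62 were also called in the same direction under ES, and of the 20, 2 were. Within 10 Mb of Chrm3 itself 2 of 80 tested genes were called (2.50%), and within 10 Mb of Lgr5 1 of 89 (1.12%). The chromosome 17 count was 34 without WT replicate 1 and 34 without WT replicate 2.

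**Figure D3:**
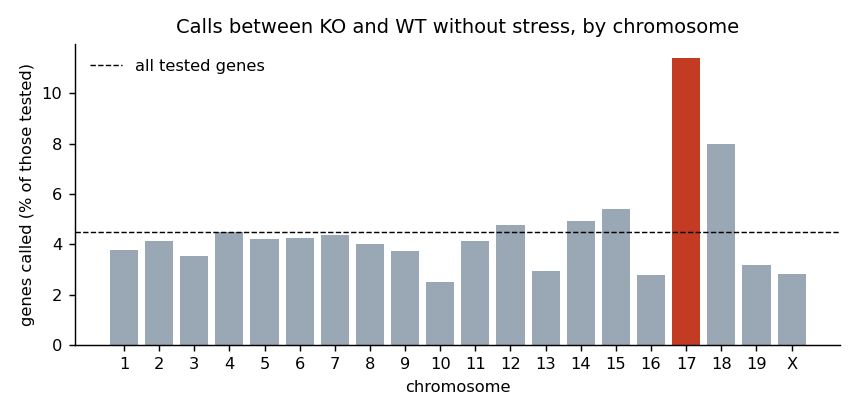
Percent of tested genes called between KO and WT without stress, for the autosomes and X, with a dashed line at the 4.47% of all tested genes. Chromosome 17 stands at 11.4% and chromosome 18 at 8%.

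The 8 named chromosome 17 genes were close within each genotype, which their choice by the smallest p favours. Grm4, a metabotropic glutamate receptor (GRCm38 chromosome 17, 27422387 to 27521403), had 19.9 and 19.7 CPM in WT and 0.431 and 0.728 CPM in KO (-5.11 ± 0.26, adjusted p = 5.61e-06). Prss41, a serine protease (23836785 to 23844172), had 21.4 and 20.3 CPM against 3.82 and 4.04 CPM. H2-Bl, a class I gene (36080115 to 36084223), had 21.7 and 20.5 CPM against 3.15 and 4.28 CPM. Glo1, glyoxalase 1 (30584936 to 30626871), had 235 and 228 CPM against 106 and 112 CPM. Its annotated span overlaps the low-coordinate edge of that of Dnah8, so the 2 may share reads if strand was not used in counting. Dnah8, an axonemal dynein (30624354 to 30877365), had 171 and 176 CPM against 89.0 and 82.5 CPM. A pair of neighbours was higher in KO, Tagap1 (6955011 to 6961156) at 10.7 and 10.6 against 38.6 and 34.7 CPM and the ribonuclease Rnaset2b (6970634 to 7011299) at 36.8 and 38.4 against 73.2 and 69.8 CPM. The eighth was the goblet gene Tff3, above.

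The 6 samples of the ageing experiment, from Lgr5CreERT2-IRES-GFP mice of 2 and 18 months without the Chrm3 allele in their description, give a further point of reference for these genes. They are in a table that was scaled separately, so levels are only set side by side. Grm4 had 0.256 to 0.665 CPM in the 3 young samples and 0.254 to 0.723 CPM in the 3 old ones, at the level of KO. Glo1 had 106 to 108 CPM in the young samples and 102 to 111 CPM in the old ones, again at the KO level. Tagap1 (34.1 to 41.3 CPM) and Rnaset2b (65.8 to 75.6 CPM) were also nearer to the KO than to the WT values in the young samples. The young mean was nearer to KO for 7 of the 8 named genes. Tff3 was the exception, at 231 to 257 CPM in the young samples and 289 to 376 CPM in the old ones, above both WT and KO. Across chromosome 17, the KO mean was nearer than the WT mean to the young mean for 85 of 104 called genes (81.7%), on the log2 scale with 0.5 CPM added, and for 58.1% of all tested genes of that chromosome. It was nearer for 68 of the 84 called genes between 5 and 45 Mb (81.0%) and for 17 of the 20 beyond 45 Mb (85.0%). On the other chromosomes it was nearer for 337 of 672 (50.1%), and over all tested genes of the genome for 49.6%. Lists of genes differed. For called mitosis genes KO was nearer for 22 of 25 and for called cholesterol genes 12 of 15, with 0 tested genes of either list on chromosome 17. For called early response genes it was nearer for 17 of 29, and for called fatty acid oxidation genes 1 of 7. For called goblet genes KO was nearer for 1 of 18, and for called tuft genes 0 of 18. The young means of Muc2 (964 CPM), Agr2 (446 CPM), Avil (31.5 CPM) and Sh2d6 (24.1 CPM) lay above both genotypes. Where that is so, a gene that fell in KO is nearer to WT by its direction alone. The goblet and tuft counts therefore cannot be set against that of chromosome 17. The labels give no genetic background for the mice. A difference in background was not tested, and in this design it cannot be told apart from genotype or injection.

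**Figure D4:**
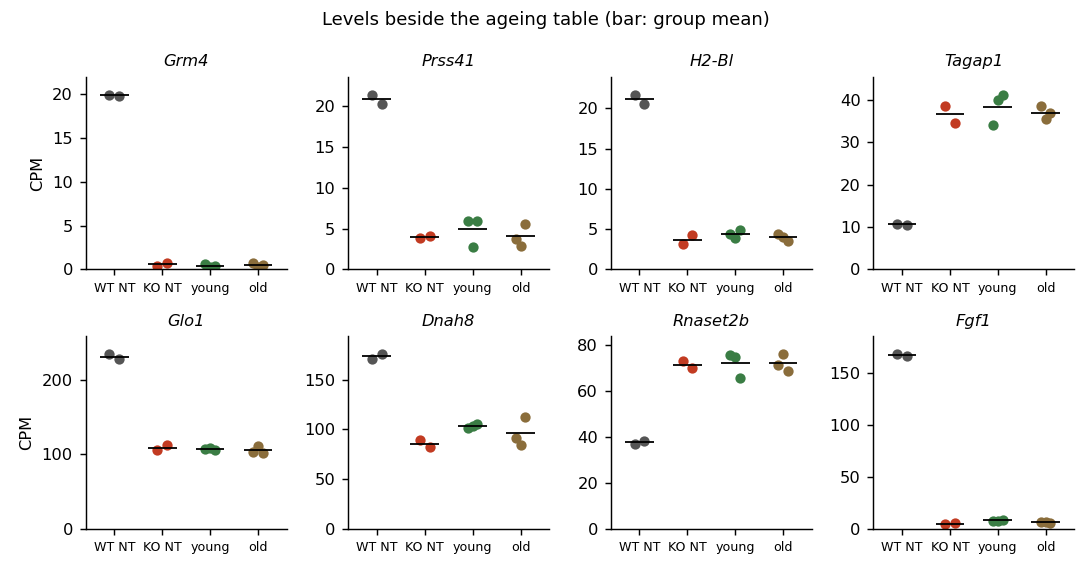
CPM of 7 chromosome 17 genes and of Fgf1 in WT NT and KO NT samples and in the young and old samples of the ageing table, which was scaled separately; bars are group means and axes start at 0. Grm4 is at 19.9 and 19.7 CPM in WT NT and under 1 CPM in the KO, young and old samples.

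A gene elsewhere had levels of the same kind. Fgf1, a fibroblast growth factor on chromosome 18, had 168 and 166 CPM in WT and 4.69 and 5.31 CPM in KO (-5.07 ± 0.14, adjusted p = 4.06e-08), beside 7.68 to 8.56 CPM in the young samples. Processed pseudogenes outside chromosome 17 were called in 41 of 1412 cases (2.9%), below the 4.08% of all genes outside that chromosome. Of the 41, 31 were lower in KO, and KO was nearer to young for 30, against 50.1% of all tested processed pseudogenes there. Rps2-ps13, a ribosomal protein pseudogene on the X chromosome, had 41.5 and 40.3 CPM against 15.2 and 14 CPM. Its parent gene Rps2 lies on chromosome 17 (from 24718116) and had 1446 and 1421 CPM against 1692 and 1498 CPM, without a call. Reads of near-identical copies may be split by the counting, so calls of such copies are uncertain, and Rps2 was chosen after its values were seen.

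Among called genes with a mean of at least 1 CPM, groups that did not overlap and a symbol other than a predicted or clone-based name, the 20 with the largest changes were of mixed kinds. The 10 with the largest falls were Fgf1, Grm4, Serpinh1 (a collagen chaperone), Adamts10, H2-Bl, Prss41, Tmem116, Hddc3, Zcchc3 and Greb1l, from -5.11 to -2.00 on the log2 scale, and Grm4, Adamts10, H2-Bl and Prss41 lie on chromosome 17. The 10 with the largest rises were Fam71a, Tmprss15 (enteropeptidase), Egr3, Atf3, Nr4a1, Arhgdig, Hspa1a, Asb4, Areg and Zfp951, from 2.05 to 4.36, and 5 of them are early response or heat shock genes or ligands named above. Among these 10, Arhgdig and Hspa1a lie on chromosome 17. Fam71a had 0.408 and 0 CPM in WT and 3.96 and 4.92 CPM in KO.

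Under ES, the stress arm of the same experiment, 4 other samples gave the same contrast of genotypes. Of the 776 genes called without stress, 361 were called in the same direction under ES, which is 46.5% of the NT calls and 27.5% of the 1312 ES calls, and 7 were called in the opposite direction. ES calls were 536 higher (3.09%) and 776 lower (4.47%). The WT NT samples weigh on this count too, which was 112 and 118 without them and 183 without KO ES replicate 2. Calls of cholesterol synthesis and goblet genes recurred, with all 15 and all 18 called again. For tuft genes 12 of the 18 recurred, and for fatty acid oxidation 6 of the 7. Of the mitosis calls 3 of 25 recurred, and of the 29 early response calls 6 did. Whether these lists differ between the settings was not tested as lists.

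**Figure D5:**
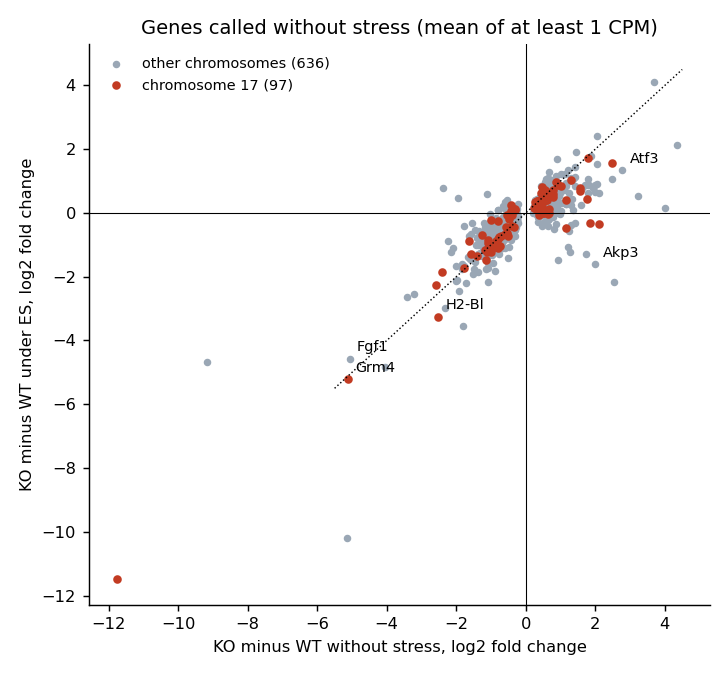
Log2 fold change of KO minus WT without stress (horizontal) and under ES (vertical) for the called genes with a mean of at least 1 CPM over the 4 NT samples, with chromosome 17 in red and a dotted line of equality. Grm4 and Fgf1 lie near the line at about -5, and Akp3 lies to the lower right. Points below -6 on either axis are genes with predicted or clone-based names or none, which are not named in the text.

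The difference of the genotype effects, ES minus NT, was tested for every gene and passed for 19 of 17364 (0.109%). Among them, Akp3 was higher in KO without stress (2.00) and lower under ES (-1.60), a difference of -3.60 ± 0.47 (adjusted p = 0.0246). Slc40a1 (-2.50 ± 0.28, adjusted p = 0.0115) and Per1 (-1.24 ± 0.14, adjusted p = 0.0115) followed the same order. Xdh (-1.64 ± 0.21, adjusted p = 0.0222) and Klf10 (-1.68 ± 0.17, adjusted p = 0.00894) had the same signs. Under ES these last 2 were not called (-0.47, adjusted p = 0.072, and -0.39, adjusted p = 0.0762). Of the 19 differences 17 were negative. Reg1, a secreted lectin, had the smallest adjusted p (-2.77 ± 0.22, adjusted p = 0.00197), and Sox4 and Scn2b had the 2 positive differences. Reg1 and Scn2b were chosen after their values were seen. The 7 genes called in opposite directions were Per1, Slc40a1, Akp3, Alpi, Sox4, Pck1 and Rps6ka5, of which the last 4 are named because the count is small. The count of 19 depended on the samples, with 363 without KO NT replicate 1 and 0 without WT NT replicate 1, where edgeR gave 1446 of 18359 genes at an unadjusted p under 0.05 (DESeq2 on all samples called 211).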

How the data were processed

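Polyadenylated RNA was sequenced from strand-specific TruSeq libraries, per the labels' protocols. The deposited table holds whole-number counts per Ensembl gene with no normalization. The submitters' processing notes name mm10 and FastQC 0.11.2. The aligner and counter were not given in the sources used here. Gene positions are from GENCODE M21 (GRCm38), which held 55154 of the 55335 identifiers.

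All 8 samples of the Chrm3 table were fitted with a mean per group in edgeR 4.0.16 (R 4.3.3): filterByExpr defaults, TMM scaling, quasi-likelihood test in its newer form, Benjamini-Hochberg adjustment over the 17364 tested genes, threshold 0.05. Standard errors were derived from the fold change and its F statistic and are approximate. Alternatives used limma 3.58.1 and DESeq2 1.42.0. The test was checked on simulated counts with known changes: wrong calls there made up a larger share of all calls than the threshold states, and the smallest fold was recovered less often than the larger ones. The members and the 47 gene lists were chosen with earlier results of these data known. Lists are described by counts and medians only.

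Genes were named by rule: Chrm3, Lgr5, Olfm4, Ascl2, Mki67 and Cdkn1a; the 10 largest changes each way among called genes with a mean of at least 1 CPM, no overlap between the groups and no predicted or clone-based name; up to 4 called members by p of each list with several; the 8 chromosome 17 genes and 10 genes shared with ES with the smallest p; and members of the acetylcholine and clock lists. The nearness to the young samples was added after seeing the data, as was the search for pseudogenes. A few genes that the rule selects are not reported here.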

Additional observations from a re-analysis of the deposited data

Results flagged for a closer look

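The genotype effect differed between the unstressed and the ES setting for 19 genes by a test of the difference itself, the KO minus WT effect under ES less that without stress. It was negative for 17 and positive for 2. The 5 that the naming rule selects are all negative. The values were -3.60 for Akp3, -2.50 for Slc40a1, -1.68 for Klf10, -1.64 for Xdh and -1.24 for Per1, each with an adjusted p from 0.00894 to 0.0246 in edgeR. The smallest adjusted p was that of Reg1 (-2.77, adjusted p = 0.00197), and the 2 positive values were 0.76 for Scn2b and 0.50 for Sox4, each with an adjusted p of 0.0475 in edgeR. In WT the 5 genes chosen by the rule had higher levels under ES than without it. KO NT samples were above WT NT samples for each, which follows from the choice, as all 5 were named as genes called in NT. The difference subtracts that same NT effect, so the choice also favours negative values for genes that rose. KO NT replicate 2 was above KO NT replicate 1 for those 5, and the part of that sample in the differences was not tested.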

How the results depend on the processing

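The alternatives were fixed with earlier results of these data known, and edgeR's older quasi-likelihood form was added after seeing the data. Of 1942 values for single genes chosen by the naming rule under these alternatives, 1734 kept their direction and their side of the threshold, 191 lost the call, 13 gained one and 4 changed sign. Of the 103 genes so chosen that were called, 51 were called in every fit that left out a sample and 0 changed sign in any fit. The sign changes were in Arntl, from -0.34 to 0.25 over the fits that left out a sample, Cdkn1a, from -0.33 to 0.18, and Lgr5, from -0.12 to 0.02. None of these 3 was called.

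Without a filter on low counts more genes were tested, and edgeR called 317 genes in NT, 593 in ES, 159 in both in the same direction and 56 on chromosome 17. The difference of the genotype effects then had 0 calls, with 2249 of 29570 genes at an unadjusted p under 0.05. The lists then had 11 tuft, 9 cholesterol, 3 fatty acid oxidation, 17 early response and 2 core clock calls. That difference had 211 calls in DESeq2, 8 in limma-voom, 11 in the older form and 104 with the replicate block, and the cause was not tested. With only the 4 NT samples, and so fewer degrees of freedom, there were 4 fatty acid oxidation and 1 core clock calls. The replicate block gave 998 calls in NT and changed no list count beyond 1.5 times. The replicate numbers are shared between groups only as numbers. Deviations of same-numbered WT NT and KO NT samples correlated at -0.03 over 10945 genes, and the other pairs of groups at 0.02 to 0.36.

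Over the fits that each left out a sample, calls in NT ranged from 145 to 848, in ES from 375 to 1936, in both from 112 to 409, on chromosome 17 from 34 to 108 and for the difference from 0 to 363. For the lists the ranges were 11 to 18 for goblet, 7 to 18 for tuft, 5 to 27 for mitosis, 3 to 15 for cholesterol, 2 to 7 for fatty acid oxidation, 9 to 33 for early response and 1 to 5 for core clock genes. The lowest NT, chromosome 17, goblet, tuft, mitosis and cholesterol values came from fits without a WT NT sample. With 2 samples in a group, a lone sample is assumed to vary like the others. Counting precision limits genes near 1 CPM.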
